A study of Mus musculus with 34 samples.

Results

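Gene expression was compared between hepatocytes of knockout mice taken 48 h after carbon tetrachloride (CCl4) and hepatocytes of knockout mice that had received no CCl4. The libraries were chosen by their group labels: 4 with CCl4 (libraries 13, 14, 17 and 18) and 5 without it (libraries 4, 5, 10, 20 and 21), which is 9 of the 18 hepatocyte libraries and of the 34 libraries in all. Knockout mice were Opn-CreERt2 Yapfl/fl Tazfl/fl, so that a tamoxifen-inducible Cre under the osteopontin promoter, which is active in biliary cells, could delete Yap and Taz there. Every mouse had the mixed B6;129P background and was injected with tamoxifen at 1.6 mg/kg on each of 5 days at an age of 7 to 8 weeks, and 3 weeks of washout came next. CCl4 was given at 1 ml/kg into the peritoneum, and no vehicle injection is named for the mice without it. The same contrast in control siblings, Yap fl/fl Taz fl/fl without Cre and also given tamoxifen (3 libraries with CCl4, 6 without), is used to place the response of the knockout livers. Hepatocytes were purified on Percoll and sorted for the absence of propidium iodide, a dye that enters dead cells, so that cells with intact membranes were read.

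CCl4 is turned into a reactive radical by cytochrome P450 enzymes, Cyp2e1 above all, which are most abundant in the hepatocytes around the central vein. These pericentral cells die, and the remaining hepatocytes leave quiescence, copy their DNA and divide to rebuild the lobule. YAP and TAZ are transcriptional coactivators held in check by the Hippo kinases; in the knockout livers the deletion was directed at the cells that line the bile ducts, which were not sorted, and the hepatocytes read here were not the intended target.

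The 3′ tag libraries held 931496 to 2315274 counts with CCl4 and 1262867 to 1835324 without it. Levels are CPM, the count of a gene relative to the counts of all tested genes in its library, scaled by TMM factors. These factors lay between 1.155 and 1.319 with CCl4 and between 0.9314 and 1.074 without it. Differences are log2 fold changes of CCl4 over no CCl4, and a gene is called where edgeR's quasi-likelihood test gave a Benjamini-Hochberg adjusted p under 0.05. All p-values below are of this kind. No label says that replicates were separate mice beyond their separate names, so p-values measure the spread between these samples. The labelled cell type was checked with albumin (Alb), which had 51650, 53380, 52890 and 41120 CPM in libraries 13, 14, 17 and 18 with CCl4, against 53240, 63020, 56680, 68750 and 67500 CPM in libraries 4, 5, 10, 20 and 21 without it. The ranges of Alb overlapped and it was not called (log2 fold change -0.31, adjusted p = 0.344). Of the 10 hepatocyte markers on the list, 2 were called lower, Apoa2 (3.03-fold) and Apoh (2.05-fold), and none higher, with a median of -0.46. The mean level of these markers in log2(CPM + 1) was 11.72, 11.81, 11.73 and 11.29 in libraries 13, 14, 17 and 18 with CCl4, against 11.95, 12.14, 12.24, 11.94 and 12.28 in libraries 4, 5, 10, 20 and 21 without it, so that the groups did not overlap. The part of this level in the other results was not tested.

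Several libraries without CCl4 stood apart. Library 20 was high in genes of cell division: the mean level of the mitosis list, in log2(CPM + 1), was 4.03 there, against 1.202, 0.913, 0.952 and 1.18 in libraries 4, 5, 10 and 21. Libraries 4 and 5 were high in markers of other liver cells. The 11 tested Kupffer cell markers summed to 179, 246, 134 and 274 CPM in libraries 13, 14, 17 and 18 with CCl4, against 1357, 746, 181, 243 and 136 CPM in libraries 4, 5, 10, 20 and 21. The 12 sinusoidal endothelial markers summed to 92.9 to 179.7 CPM with CCl4, against 670.5 and 450.2 CPM in libraries 4 and 5 and 112 to 209 CPM in the other libraries without it. In sorted bulk cells, fewer cells of a type and less RNA per cell cannot be told apart.

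The targeted genes do not check the genotype here, because the deletion was aimed at cells that were not sorted and a 3′ tag may lie outside the deleted stretch. Yap1 had 54.1, 75.9, 76.9 and 71.3 CPM in libraries 13, 14, 17 and 18 with CCl4, against 48.3, 38.2, 46.2, 49.6 and 41.1 CPM in libraries 4, 5, 10, 20 and 21 without it. Each library with CCl4 lay above each without, and the log2 fold change of Yap1 was 0.63, a called rise (SE 0.153, adjusted p = 0.00794; adjusted p = 0.0758 without a filter on low counts). Wwtr1, which encodes TAZ, had 22.7, 22.5, 33.8 and 17.6 CPM with CCl4 and 40.6, 26.1, 23.8, 21.5 and 24.0 CPM without it. The ranges of Wwtr1 overlapped (log2 fold change -0.22, SE 0.242, adjusted p = 0.616).

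Of 9679 genes tested, 1341 were called, which is 13.9% of them. CCl4 raised 679 genes (7.02%) and lowered 662 (6.84%), and the ranges of the 2 groups did not overlap for 1263 genes (13%). Without library 18 the count was 751 (410 higher, 341 lower). The balance of directions depends on the scaling: with library totals and no TMM factor, 1401 genes were called higher and 330 lower, and the median log2 fold change of all genes was 0.255, against -0.018 with TMM. Lists of genes are described below by the number called and by their median, to be read against these shares and against that median of -0.018. The plot of fold changes by list shows the spread of every member.

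**Figure D1:**
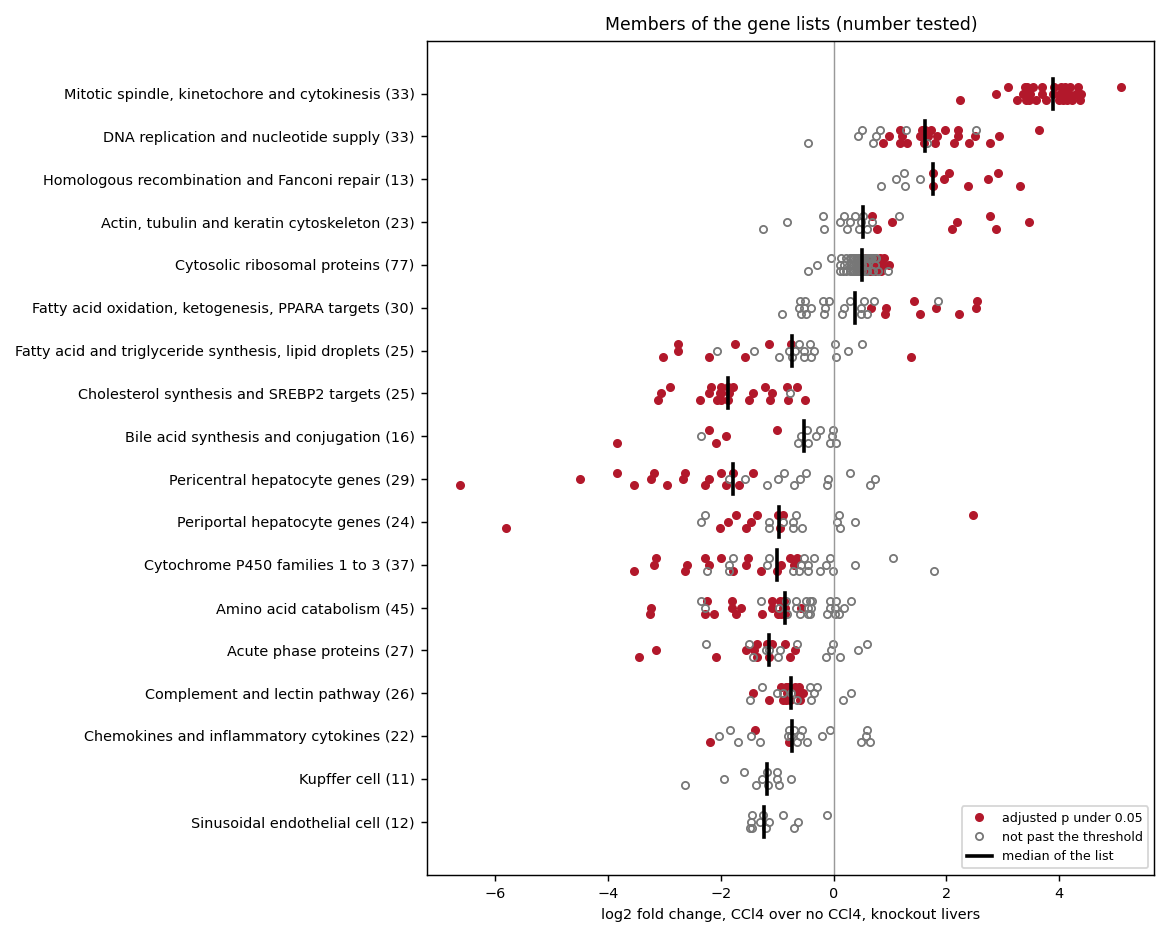
Log2 fold change of CCl4 over no CCl4 in knockout hepatocytes (horizontal axis) for the tested members of 18 gene lists (rows). Filled points were called, open points were not, and the black bar is the median of the list. The mitosis list lies highest, with a median of 3.90, and the cholesterol list lowest, with a median of -1.87.

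Genes of mitosis rose together. All 33 tested members, which build the spindle, the kinetochore and the cleavage furrow, were called higher, with log2 fold changes from 2.23 to 5.10 and a median of 3.90. Their ranges did not overlap in 32 of 33 cases. The exception was Anln, an actin-binding protein of the cleavage furrow, because of library 20: it had 31.4, 12.4, 38.5 and 52.4 CPM in libraries 13, 14, 17 and 18 with CCl4, against 1.54, 1.91, 0, 14.1 and 0.857 CPM in libraries 4, 5, 10, 20 and 21 without it. The summed level of the list was 2431, 2054, 2641 and 3235 CPM with CCl4, against 62.7, 42.0, 42.6, 703 and 61.7 CPM without it. Without library 20 the same 33 members were called and the median was 5.29. What set that library apart was not tested.

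Promoters are shown for Prc1 and Spc25 and for Prim1 and Rrm2, the called genes of lowest p in the mitosis and replication lists among those with a listed promoter, to set the letters of these division genes beside their values. Incenp, of lower p than Prc1, is named only. The sequences are RefSeq's for GRCm38.p6, from 250 bases before to 50 bases after the annotated start, written 5′ to 3′ on the strand of the gene. Capitals mark CCAAT, the box bound by the factor NF-Y, and TTTGAA, a spelling of the cell cycle homology region read by the DREAM complex and its MuvB core, each searched on both strands. Prc1 (chr7:80294201-80294500, plus strand) and Spc25 (chr2:69206164-69206463, minus strand) belong to the mitosis list. Prim1 (chr10:128014965-128015264, plus strand) and Rrm2 (chr12:24708004-24708303, plus strand) belong to the replication list.
Prc1: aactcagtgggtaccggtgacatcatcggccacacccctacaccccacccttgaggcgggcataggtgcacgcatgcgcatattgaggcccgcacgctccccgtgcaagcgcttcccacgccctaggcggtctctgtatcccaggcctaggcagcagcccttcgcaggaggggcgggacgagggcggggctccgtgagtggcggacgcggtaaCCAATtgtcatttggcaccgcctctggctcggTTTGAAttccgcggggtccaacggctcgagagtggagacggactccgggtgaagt
Spc25: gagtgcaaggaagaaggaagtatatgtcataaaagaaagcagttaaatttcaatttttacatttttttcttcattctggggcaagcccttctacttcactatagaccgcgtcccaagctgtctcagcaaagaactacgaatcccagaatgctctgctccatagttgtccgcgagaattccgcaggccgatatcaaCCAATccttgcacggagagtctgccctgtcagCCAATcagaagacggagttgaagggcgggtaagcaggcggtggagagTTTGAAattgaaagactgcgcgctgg
Prim1: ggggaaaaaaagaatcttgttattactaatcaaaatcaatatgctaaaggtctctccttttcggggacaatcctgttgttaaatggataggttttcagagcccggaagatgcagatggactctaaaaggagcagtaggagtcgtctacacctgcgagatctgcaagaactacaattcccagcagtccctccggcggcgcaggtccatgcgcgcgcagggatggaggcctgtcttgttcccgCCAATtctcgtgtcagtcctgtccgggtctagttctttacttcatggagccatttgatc
Rrm2: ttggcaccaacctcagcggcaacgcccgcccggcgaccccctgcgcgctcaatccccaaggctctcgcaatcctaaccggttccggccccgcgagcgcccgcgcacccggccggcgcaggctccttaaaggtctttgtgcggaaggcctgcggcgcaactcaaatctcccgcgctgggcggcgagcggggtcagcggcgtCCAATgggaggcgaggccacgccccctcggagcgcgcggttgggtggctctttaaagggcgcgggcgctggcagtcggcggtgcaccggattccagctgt
CCAAT stands in all 4 promoters and TTTGAA in Prc1 and Spc25. The E2F spellings TTTCCCGC, TTTCGCGC, TTTGCCGC and TTTGGCGC were in none of the 4, and no matches overlapped. Promoters were listed for 25 of 33 tested mitosis genes, and 19 of them (76%) held CCAAT, 19 (76%) TTTGAA and 1 (4%) an E2F spelling. Promoters were listed for 26 of 33 tested replication genes, and 17 (65.4%) held CCAAT, 3 (11.5%) TTTGAA and 10 (38.5%) an E2F spelling. Over all tested genes with a listed promoter the shares were 39.1%, 12.1% and 4.43%. Such matches describe letters and are not binding sites.

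Prc1, which bundles microtubules at the spindle midzone (GRCm38 chromosome 7, 80294450 to 80316259), had 63.5, 41.0, 61.9 and 103 CPM in libraries 13, 14, 17 and 18 with CCl4, against 1.03, 1.91, 1.44, 13.3 and 4.28 CPM in libraries 4, 5, 10, 20 and 21 without it. Even library 20 lay below every library with CCl4, and Prc1 rose by 4.02 (SE 0.483, adjusted p = 2.52e-05), which is 16.2-fold. Spc25, a subunit of the NDC80 complex that holds microtubules at the kinetochore (chromosome 2, 69193895 to 69206194), had 80.8, 88.3, 85.4 and 93.2 CPM with CCl4, against 2.06, 3.18, 4.33, 23.7 and 6.85 CPM without it. The 4 libraries with CCl4 were closely alike and well above the rest, and Spc25 rose by 3.49 (SE 0.3996, adjusted p = 2.52e-05). Incenp, the scaffold of the chromosomal passenger complex (chromosome 19, 9872296 to 9899551), had 39.4, 44.1, 24.4 and 43.8 CPM with CCl4, against 5.14, 1.27, 2.17, 10.4 and 3.43 CPM without it. Its rise of 3.09 (SE 0.328, adjusted p = 1.66e-06) was called whichever of the 9 libraries was left out, with values of 2.84 to 3.64. Cdca8, another subunit of that complex, rose by 3.53 (SE 0.468, adjusted p = 4.31e-05).

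Other division genes were close to absent without CCl4. The mitotic kinesin Kif20a had 16.03, 9.29, 7.51 and 10.3 CPM in libraries 13, 14, 17 and 18 with CCl4 and 2 counts, all in library 10, without it, a ratio of 40.5 with a counting interval of 10.8 to 341 that covers counting error only. Plk1, the polo-like kinase that drives entry into mitosis, had 97.5, 111, 129.5 and 134 CPM with CCl4, against 0, 0.637, 0, 28.9 and 0 CPM in libraries 4, 5, 10, 20 and 21 (4.38, adjusted p = 0.000639). The same pattern of a single raised library without CCl4 was present in Nusap1, a microtubule-bundling protein, with 72.1, 85.2, 100.4 and 92.2 CPM with CCl4, against 0.514, 0.637, 0.722, 19.3 and 0.857 CPM without it. Kif14, a kinesin of cytokinesis, rose by 4.47, the checkpoint protein Kntc1 by 4.47, and separase (Espl1), which opens sister chromatids, by 4.38. Lockd, a noncoding RNA next to Cdkn1b in the mouse genome, rose by 4.87.

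**Figure D2:**
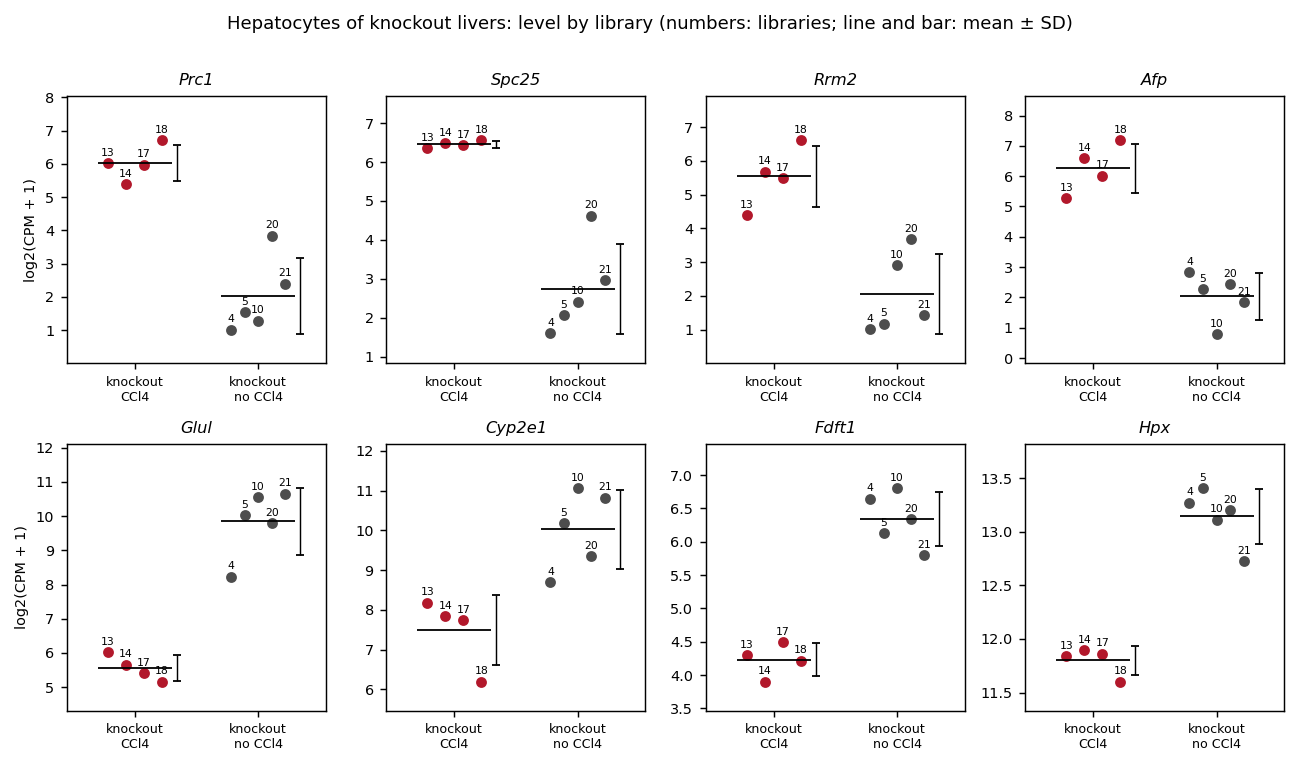
Level of 8 genes in log2(CPM + 1) (vertical axis) in knockout hepatocytes with CCl4 (left of each panel) and without it (right). Each point is a library with its number, and the line and bar are the mean ± SD of 4 and 5 libraries. Prc1, Spc25, Rrm2 and Afp are higher and Glul, Cyp2e1, Fdft1 and Hpx lower with CCl4, and library 20 is the highest of its group for Prc1, Spc25 and Rrm2.

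Genes of DNA replication and nucleotide supply rose in 24 of 33 cases with none called lower, and their median was 1.63. The count is uneven in its support: it was 13 without library 18 and 26 without library 20. Prim1, the catalytic primase subunit (chromosome 10, 128015168 to 128030037), had 22.7, 24.0, 15.95 and 29.5 CPM in libraries 13, 14, 17 and 18 with CCl4, against 4.11, 6.37, 2.17, 5.92 and 3.43 CPM in libraries 4, 5, 10, 20 and 21 without it. For Prim1 library 20 lay within its own group, and the rise was 2.39 (SE 0.290, adjusted p = 2.52e-05). Rrm2, the subunit of ribonucleotide reductase that rises in S phase (chromosome 12, 24708241 to 24714146), had 20.04, 50.3, 44.1 and 96.2 CPM with CCl4, against 1.03, 1.27, 6.50, 11.9 and 1.71 CPM without it. Rrm2 rose by 3.63 (SE 0.564, adjusted p = 0.000212), with library 18 highest. Thymidylate synthase (Tyms) rose 4.59-fold (adjusted p = 0.000804) and the single-strand binding subunit Rpa2 3.58-fold (adjusted p = 0.000711).

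Of 20 genes of the G1/S step, 11 rose and none fell (median 1.41). Cdkn3, a phosphatase of cyclin-dependent kinases, had 59.5, 23.2, 57.2 and 66.0 CPM in libraries 13, 14, 17 and 18 with CCl4, against 0.514, 0, 0, 17.03 and 0 CPM in libraries 4, 5, 10, 20 and 21 without it. It rose by 3.95 (adjusted p = 0.000597), the E2F family activator E2f2 by 2.35 (adjusted p = 0.00177) and the kinase inhibitor Cdkn2c by 1.87 (adjusted p = 0.00163). Foxm1, the factor that switches on mitotic genes, rose by 3.15 (adjusted p = 0.00178; DESeq2 adjusted p = 0.067). The early growth genes, named after their values were seen, were not called: cyclin D1 (Ccnd1) had 163, 179.7, 219 and 176 CPM with CCl4, against 179, 162, 181, 296 and 131 CPM without it. Myc had a log2 fold change of -0.55 (adjusted p = 0.389). Both ranges overlapped, and library 20 was the highest of all 9 for both genes.

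Homologous recombination and Fanconi repair genes were called higher in 8 of 13 cases and none was called lower (median 1.76), and the count was 4 without library 18 and 4 in a fit of the 9 libraries alone. Rad51ap1, which takes part in homologous recombination, had 5.34, 10.8, 8.44 and 11.6 CPM in libraries 13, 14, 17 and 18 with CCl4, against 1.54, 0.637, 0, 3.70 and 0.857 CPM in libraries 4, 5, 10, 20 and 21 without it. Its groups did not overlap, and it rose by 2.74 (SE 0.579, adjusted p = 0.00211). The list also holds Bard1, which rose by 2.92 (adjusted p = 0.00212), and the helicase Brip1, which rose by 1.76 (adjusted p = 0.00383). Targets of p53 did not go one way: 6 of 14 rose and 2 fell. Mdm2, which degrades p53, rose by 0.79 (adjusted p = 0.00462), the nuclease Aen by 1.30 and cyclin G1 (Ccng1) by 0.93. The spindle protein Ckap2 on this list rose by 3.29 (adjusted p = 0.0946 in a fit of the 9 libraries alone). The 2 that fell were the death receptor Fas (-1.18) and the stress cytokine Gdf15 (-1.14), whose call was lost without library 10 (adjusted p = 0.0622) or 18 (adjusted p = 0.0805).

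Cytoskeletal genes rose in 8 of 23 cases and none fell (median 0.53). Tubb6, a beta-tubulin, had 118, 129, 143 and 208 CPM in libraries 13, 14, 17 and 18 with CCl4, against 22.6, 15.3, 14.4, 35.5 and 13.7 CPM in libraries 4, 5, 10, 20 and 21 without it. All libraries with CCl4 were more than any without, and Tubb6 rose 7.34-fold (2.88, SE 0.270, adjusted p = 1.66e-06). Tuba1b rose by 2.78, Tubb5 by 2.18 and Tubb4b 4.27-fold; tubulin genes are near copies of each other, and reads may be shared among them. Fetal and injury-related genes were called higher in 4 of 17 cases (median 0.30; 2 without library 18). Among them alpha-fetoprotein (Afp, chromosome 5, 90490737 to 90508907), the fetal counterpart of albumin, had 38.1, 95.3, 63.8 and 144 CPM with CCl4, against 6.17, 3.82, 0.722, 4.44 and 2.57 CPM without it. Afp rose 23.0-fold (4.52, SE 0.414, adjusted p = 1.66e-06), and here library 20 was in the middle of its group. The membrane-binding protein Anxa2 rose by 2.36 (adjusted p = 0.000777). The cadherin Cdh17 was present at 4.68 to 10.1 CPM with CCl4 and in libraries 4 and 5 only without it, a ratio of 15.5 (counting interval 4.96 to 78.0). With each of the 9 libraries left out in turn, Cdh17 was called in 4 fits and did not pass the filter on low counts in the others.

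The pericentral program fell. Of 29 tested genes typical of hepatocytes around the central vein, 16 were called lower and none higher, with a median of -1.78. The count was 12 without library 18, 13 without library 14, 13 by limma voom, 13 without a filter on low counts and 19 without library 4. Library 4 was itself low in these genes without CCl4: the mean level of the list in log2(CPM + 1) was 5.30, 4.84, 5.46 and 4.74 in libraries 13, 14, 17 and 18 with CCl4, against 5.73, 6.83, 7.23, 6.95 and 7.23 in libraries 4, 5, 10, 20 and 21 without it. Whether the other cell markers of library 4 bear on this was not tested.

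Glul, glutamine synthetase (chromosome 1, 153899944 to 153909723), which is confined to the hepatocytes next to the central vein, had 64.1, 49.6, 41.3 and 34.8 CPM in libraries 13, 14, 17 and 18 with CCl4, against 299.5, 1045, 1506, 881 and 1617 CPM in libraries 4, 5, 10, 20 and 21 without it. The groups were far apart, and Glul was 22.6-fold lower (-4.50, SE 0.479, adjusted p = 2.27e-05). The glutamate transporter Slc1a2, which marks the same cells, was at 0 in libraries 13, 14 and 17 and at 1.66 CPM in library 18, against 16.95, 68.8, 128, 48.1 and 107 CPM without CCl4 (-6.62, adjusted p = 6.97e-05; adjusted p = 0.0985 by limma voom). Cyp2e1, the enzyme that activates CCl4 (chromosome 7, 140763739 to 140774987), had 289.9, 228, 214 and 72.3 CPM with CCl4, against 413, 1162, 2153, 656 and 1813 CPM without it. Cyp2e1 fell by 2.63 (SE 0.509, adjusted p = 0.00227), with library 18 lowest of all and library 4 lowest without CCl4. Axin2, the general target of Wnt signalling, named after its values were seen, was low in every library and was not called (-1.57, adjusted p = 0.148).

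Cytochrome P450 genes of families 1 to 3 were called lower in 17 of 37 cases and none was called higher (median -1.004). The count rests on single libraries, being 7 without library 18 and 10 without each of libraries 10, 13, 14 and 21, 9 with library totals as the scale, and 11 without a filter on low counts or in a fit of the 9 libraries alone. Cyp1a2 had 96.9, 39.5, 74.1 and 41.1 CPM in libraries 13, 14, 17 and 18 with CCl4, against 127, 404, 969, 449 and 888.5 CPM in libraries 4, 5, 10, 20 and 21 without it, a 9.06-fold fall (adjusted p = 0.00184). Cyp2c38 had 6.68, 3.87, 17.8 and 4.64 CPM with CCl4, against 39.6, 79.0, 128, 98.5 and 99.4 CPM without it (-3.54, adjusted p = 9.59e-05). Both genes had separate ranges, with library 4 nearest to the CCl4 group. Cyp2c29 fell by 2.29 and Cyp2j5 by 1.00. Genes of the Cyp2c family are near copies, and reads may be divided among them. Conjugating enzymes were called lower in 8 of 20 cases (median -1.01; 4 without library 18, 5 without each of libraries 10, 14 and 21 and with library totals). The sulfotransferase Sult2a1 had 2.00, 0, 11.3 and 10.3 CPM with CCl4, against 141, 258.5, 270, 87.4 and 127 CPM without it (-4.82, adjusted p = 0.00142; 0.0855 by limma voom), and its near copy Sult2a5 fell by 3.95. The glucuronosyltransferase Ugt2b1 fell by 1.45 (adjusted p = 0.00111).

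**Figure D3:**
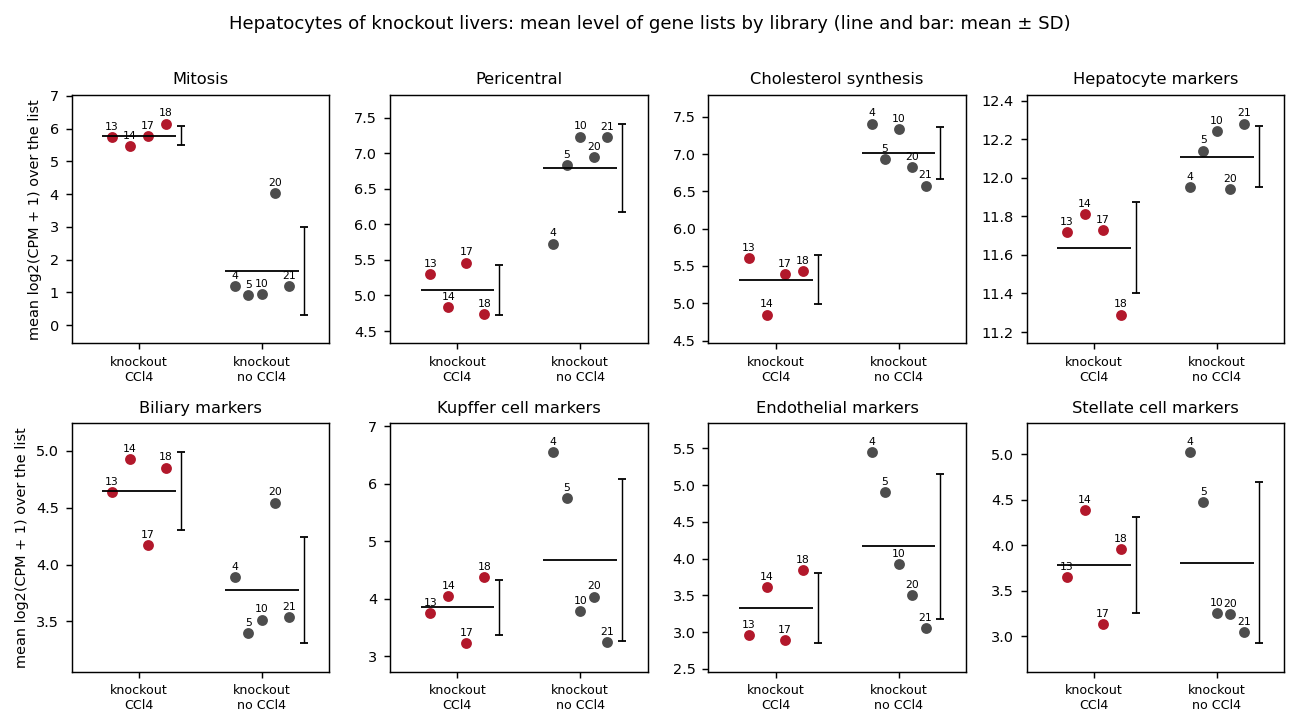
Mean level of 8 gene lists in log2(CPM + 1) (vertical axis) in each knockout hepatocyte library, with CCl4 at the left of each panel and without it at the right; numbers are libraries. The mitosis list lies between 5.47 and 6.15 with CCl4 and at 4.03 in library 20 against 0.913 to 1.202 in the others without it, and the Kupffer and endothelial lists are highest in libraries 4 and 5.

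Genes of the periportal end of the lobule, far from the CCl4 lesion, fell as well: 10 of 24 were called lower and 1 higher (median -0.96). Argininosuccinate lyase (Asl), a urea cycle enzyme, had 78.8, 68.2, 72.2 and 63.7 CPM in libraries 13, 14, 17 and 18 with CCl4, against 228, 264, 454, 144 and 344 CPM in libraries 4, 5, 10, 20 and 21 without it. All 5 libraries without CCl4 were above the rest, and Asl fell by 2.02 (SE 0.290, adjusted p = 0.000102). Argininosuccinate synthase (Ass1), the step before it, fell by 1.87 (adjusted p = 0.000366) and liver glutaminase (Gls2) was 3.32-fold lower (adjusted p = 0.000758). The member that rose was Apoa4, an apolipoprotein of triglyceride-rich particles, with 139.6, 437.5, 246 and 214 CPM with CCl4, against 39.6, 50.9, 36.1, 45.9 and 60.0 CPM without it (5.58-fold, adjusted p = 0.00145).

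Amino acid catabolism went the same way, with 20 of 45 genes called lower, none higher and a median of -0.85 (13 lower with library totals as the scale). Haao, an enzyme of tryptophan breakdown, had 79.5, 73.6, 76.0 and 61.4 CPM in libraries 13, 14, 17 and 18 with CCl4, against 184, 257, 252, 219 and 356 CPM in libraries 4, 5, 10, 20 and 21 without it (-1.81, adjusted p = 3.49e-05). The glycine methyltransferase Gnmt, which uses up S-adenosylmethionine, had 204, 72.0, 190.5 and 89.9 CPM with CCl4, against 708.5, 1318, 1849, 874 and 1876 CPM without it, a 9.57-fold fall (adjusted p = 6.00e-05). Ahcy, which acts directly after it, fell by 2.25 (adjusted p = 0.000164). Among genes of sugar metabolism 5 of 25 were called lower (3 without library 14 or 18) and 1 higher. Lactate dehydrogenase A (Ldha) had 567, 874, 946 and 1036 CPM with CCl4, against 396, 319.6, 354, 437 and 337 CPM without it, and rose 2.32-fold (adjusted p = 0.000657). Ketohexokinase (Khk) fell by 1.13 and the glucose-6-phosphate carrier Slc37a4 by 1.39.

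Cholesterol synthesis genes fell almost as a whole. Of 25 tested members, 24 were called lower, with log2 fold changes from -3.12 to -0.51 over the list and a median of -1.87, and 22 of 25 had ranges that did not overlap. Leaving out 1 library at a time left 17 to 22 members called. Fdft1, squalene synthase (chromosome 14, 63145150 to 63179578), had 18.7, 13.9, 21.6 and 17.6 CPM in libraries 13, 14, 17 and 18 with CCl4, against 99.2, 68.8, 111, 80.0 and 54.8 CPM in libraries 4, 5, 10, 20 and 21 without it. The groups were separate, and Fdft1 fell by 2.21 (SE 0.277, adjusted p = 3.77e-05). Dhcr7, the last reductase of the pathway, was even with CCl4 and, apart from a lower library 5, without it. It had 36.1, 36.4, 40.3 and 38.8 CPM with CCl4, against 152, 106, 146.5, 146 and 142 CPM without it (3.65-fold lower, adjusted p = 0.000193). Idi1, the isopentenyl isomerase, had 20.7, 10.1, 13.1 and 17.9 CPM with CCl4, against 184, 134, 219, 69.6 and 78.8 CPM without it (8.70-fold lower, adjusted p = 0.000108). Libraries 20 and 21 were the lowest without CCl4 for Idi1, but still well above the other group. The sterol reductase Tm7sf2 fell by 1.86 (adjusted p = 5.47e-05).

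Fatty acid synthesis genes were called lower in 8 of 25 cases and higher in 1 (median -0.74). Acss2, which makes acetyl-CoA from acetate, had 48.1, 24.0, 24.4 and 20.6 CPM in libraries 13, 14, 17 and 18 with CCl4, against 274, 158.5, 121, 168 and 272 CPM in libraries 4, 5, 10, 20 and 21 without it (-2.77, adjusted p = 7.92e-05). The stearoyl-CoA desaturase Scd1 had 757, 209, 347 and 308 CPM with CCl4, against 3228, 2183, 1829, 4906 and 4323 CPM without it, an 8.12-fold fall (adjusted p = 0.000664). Library 13 was the highest with CCl4 for both genes without reaching the other group. The elongase Elovl6 fell by 1.58 and ATP citrate lyase (Acly) by 1.14. The member that rose was the lipid droplet coat Plin2 (1.38, adjusted p = 0.00758), with 205, 801, 303 and 314 CPM with CCl4, against 138, 118, 118, 205.1 and 202 CPM without it. Library 14 was by far the highest for Plin2.

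Fatty acid oxidation genes and other targets of PPARA, the fasting receptor of the liver, moved opposite to synthesis: 9 of 30 rose and none fell (median 0.38; 15 rose with library totals as the scale). Cyp4a31, a fatty acid omega-hydroxylase, had 26.7, 141, 120 and 65.0 CPM in libraries 13, 14, 17 and 18 with CCl4, against 9.25, 14.6, 9.39, 26.7 and 16.3 CPM in libraries 4, 5, 10, 20 and 21 without it (2.53, SE 0.451, adjusted p = 0.00117). Library 13 was hardly above library 20, and Cyp4a genes are near copies that may share reads. Vnn1, a pantetheinase, had 25.4, 55.0, 55.4 and 51.1 CPM with CCl4, against 9.76, 22.3, 13.7, 19.3 and 22.3 CPM without it (2.697-fold, adjusted p = 0.00164). The long-chain dehydrogenase Acadl rose 1.58-fold (adjusted p = 0.00459) and Hadha, of the trifunctional enzyme, 1.88-fold (adjusted p = 0.0106). Library 14 weighed on this list: without it 4 members were called higher, 1 lower, and the median was 0.17, and Hadha had an adjusted p of 0.0741.

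Genes of bile acid synthesis were called lower in 5 of 16 cases (median -0.53). Slc27a5, the bile acid CoA ligase, had 122, 75.1, 155 and 92.5 CPM in libraries 13, 14, 17 and 18 with CCl4, against 288, 449, 604, 289 and 716 CPM in libraries 4, 5, 10, 20 and 21 without it (4.24-fold lower, adjusted p = 7.92e-05). Cyp7a1, the rate-limiting enzyme, had 38.1, 2.32, 27.2 and 6.63 CPM with CCl4, against 34.9, 283, 546, 229 and 195 CPM without it (-3.84, adjusted p = 0.0074). Library 4 fell within the CCl4 range for Cyp7a1, so the groups overlapped. Cyp27a1, the first enzyme of the alternative route, fell by 1.91 (adjusted p = 0.000799) and the conjugating enzyme Baat by 1.00 (adjusted p = 0.00826). Bile acid transport and FXR genes were called lower in 4 of 21 cases (1 without library 18), and the median of -0.14 turned to 0.115 with library totals as the scale. The uptake carrier Slco1b2 fell by 1.76 (adjusted p = 0.00409).

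Plasma proteins of the acute phase fell. Of 27 tested, 13 were called lower and none higher (median -1.14), with 7 called without library 18 and 8 without each of libraries 13 and 14, and 8 without a filter on low counts or with library totals. Hpx, the heme carrier hemopexin, had 3663, 3805, 3726 and 3108 CPM in libraries 13, 14, 17 and 18 with CCl4, against 9888, 10880, 8856, 9409 and 6772 CPM in libraries 4, 5, 10, 20 and 21 without it. The 4 libraries with CCl4 lay close together and below all others, and Hpx fell 2.56-fold (-1.36, SE 0.265, adjusted p = 0.00162). Haptoglobin (Hp), which carries free hemoglobin, had 1198, 1593, 1204 and 1105 CPM with CCl4, against 3023, 4374, 3640, 3183 and 2112 CPM without it (-1.36, SE 0.255, adjusted p = 0.00117). Itih3, an inhibitor chain bound to hyaluronan, fell by 1.14 (adjusted p = 0.00466) and the lipopolysaccharide-binding protein Lbp by 1.10 (adjusted p = 0.00646).

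Complement genes were called lower in 14 of 26 cases with none higher (median -0.76). The count was 4 without library 18, 7 without library 10, 8 without library 21, 9 without each of libraries 5 and 17, 9 without a filter on low counts, and 3 with library totals as the scale. C8g, a chain of the membrane attack complex, had 105.5, 99.9, 111 and 93.5 CPM in libraries 13, 14, 17 and 18 with CCl4, against 176, 222, 281.5, 312 and 393 CPM in libraries 4, 5, 10, 20 and 21 without it (-1.44, adjusted p = 0.000179). C3 fell by 0.85 (adjusted p = 0.00795). Other plasma proteins were called lower in 7 of 22 cases (median -0.46; 3 without library 17 or 18, 4 without library 21, 3 with library totals), among them the protease inhibitor Serpina1d (-1.73, adjusted p = 6.97e-05) and the fetuin Fetub (-1.46, adjusted p = 0.000637). Serpina1 genes are near copies of each other. Hamp2, a copy of the iron hormone hepcidin with which it may share reads, had 12.7, 1.549, 11.3 and 7.30 CPM with CCl4, against 122, 74.5, 571, 108 and 1413 CPM without it (-5.81, adjusted p = 0.00211).

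Ribosomal protein genes were called higher in 20 of 77 cases, with none lower and a median of 0.50. The count was 7 without library 10, 8 without library 18, 10 without each of libraries 14 and 21, and 38 with library totals as the scale. The stalk protein Rplp2 had 508, 606, 527 and 542.5 CPM in libraries 13, 14, 17 and 18 with CCl4, against 405, 332, 233, 347 and 241 CPM in libraries 4, 5, 10, 20 and 21 without it (0.81, adjusted p = 0.00316). Of 30 genes of heat shock and endoplasmic reticulum stress, 3 rose and none fell: the protein disulfide isomerase Pdia6 (1.15, adjusted p = 0.000918), the chaperone Hsp90aa1 (1.35, adjusted p = 0.0018) and Dnajb11 (0.66, adjusted p = 0.0211), a co-chaperone in the endoplasmic reticulum. The call of Dnajb11 was lost without any one of libraries 10, 14, 18 and 21 (adjusted p 0.0512 to 0.089). More genes of this list were called in other fits, 7 without library 20, 5 without library 17, 5 with RLE factors, 6 by DESeq2, with the file series as a term or in a fit of the 9 libraries alone, and 12 with library totals.

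Markers of biliary cells, the intended site of the deletion, were scarce but not absent. Of 12 listed genes, 7 passed the filter on low counts and 3 of these rose; the other 5 had 62 counts in all with CCl4 and 44 without it. Krt23, a keratin, had 25.4, 41.8, 33.8 and 17.2 CPM in libraries 13, 14, 17 and 18 with CCl4, against 7.71, 4.46, 5.78, 13.3 and 7.71 CPM in libraries 4, 5, 10, 20 and 21 without it (1.90, SE 0.442, adjusted p = 0.00647). Prom1, a membrane glycoprotein, had 48.1, 64.3, 62.9 and 62.3 CPM with CCl4, against 12.8, 15.3, 5.05, 38.5 and 15.4 CPM without it (1.78, adjusted p = 0.00703), and the tetraspanin Tspan8 rose by 1.57 (adjusted p = 0.0298), a call lost without any one of libraries 5, 10, 13, 18 and 21 (adjusted p 0.0516 to 0.309). Library 20 was again the highest without CCl4 for Krt23, Prom1 and Tspan8. Among the tested markers that were not called, Krt19 had a log2 fold change of 0.72, Sox9 of 0.76 and Spp1, the gene whose promoter drives the Cre, of -0.57. The 7 markers summed to 294, 328, 199 and 274 CPM with CCl4, against 140, 88.5, 142, 323 and 139 CPM without it, and whether biliary cells account for the rise of the 3 markers was not tested.

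Known targets of YAP and TAZ were near the background: of 20 tested, 1 rose and 1 fell (median -0.21, which turned to 0.0735 with library totals as the scale). The growth factor antagonist Crim1 rose by 1.11 (adjusted p = 0.0267) and the ectonucleotidase Nt5e was 3.03-fold lower (adjusted p = 0.0249). Crim1 was not called without any one of libraries 10, 14, 17, 18 and 21 (adjusted p 0.0525 to 0.0725), nor Nt5e without any one of libraries 4, 13, 14 and 21 (adjusted p 0.051 to 0.0759). The best known targets, named after their values were seen, were not called. Ccn1 had 117, 80.5, 80.7 and 87.6 CPM in libraries 13, 14, 17 and 18 with CCl4, against 130.5, 127, 166, 115.5 and 87.4 CPM in libraries 4, 5, 10, 20 and 21 without it (-0.46, adjusted p = 0.46). Ccn2 and Ankrd1 lay at or under 16.9 and 6.30 CPM in every library of the contrast, with overlapping ranges. Among 16 Hippo pathway components 1 was called, which was Yap1 itself.

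Chemokines and inflammatory cytokines were not called higher in any of 22 cases, and 3 were called lower (median -0.73; -0.336 without library 4). Il18, a cytokine of the interleukin-1 family, had 14.03, 3.10, 7.51 and 8.29 CPM in libraries 13, 14, 17 and 18 with CCl4, against 45.2, 43.3, 37.5, 28.9 and 37.7 CPM in libraries 4, 5, 10, 20 and 21 without it. Libraries 4 and 5, rich in Kupffer markers, had the highest values of Il18 without CCl4, and all libraries without CCl4 lay above those with it. Il18 fell by 2.20 (SE 0.284, adjusted p = 4.65e-05), and the part of other cells in this fall was not tested. Cxcl9 fell by 1.39 (adjusted p = 0.00749) and Cxcl12 by 0.78 (adjusted p = 0.00488; 0.061 with library totals as the scale). None of 11 Kupffer, 6 monocyte, 12 endothelial and 13 stellate cell markers was called. The medians of these lists were -1.18, -0.40, -1.23 and -0.45, and those of the Kupffer and endothelial lists were -0.555 and -0.764 without library 4. Markers of neutrophils, lymphocytes and erythroid cells did not pass the filter; they had 21, 8 and 42 counts in all with CCl4, against 47, 12 and 46 without it. The 8 tested markers of pancreatic acinar cells, none of which was called (median 4.38), summed to 37.4, 2.32, 160.4 and 16.9 CPM with CCl4, against 0, 1.27, 2.89, 0.740 and 6.00 CPM without it.

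The control livers served to place this response. With CCl4, control hepatocytes had 2652 of 9679 genes called (27.4%), 1324 higher and 1328 lower. Of the calls in knockout hepatocytes 1046 were also called in controls, which is 78% of the calls in knockout and 39.4% of those in control hepatocytes; 1042 of these had the same direction and 4 the opposite. The 2 contrasts share no library, but 5 control libraries (2, 7, 8, 12 and 15) came from an earlier numbered series of sequencing files that holds no knockout library, and library 15 carries a description of the other genotype. Those 5 libraries were deeper, with 4910846 to 7535053 counts, against 931496 to 2315274 in the knockout libraries. Control libraries 6, 9, 16 and 19 had 991175 to 2411576 counts. The part of depth in the larger number of calls in control hepatocytes was not tested. Tested directly, the difference of the 2 responses was called for 21 genes (0.217%), 19 with a lower (0.196%) and 2 with a higher (0.0207%) log2 fold change in knockout hepatocytes, and 987 genes had an unadjusted p under 0.05. The 21 were 54, 34, 37, 61 and 113 genes with the series as a term, with RLE factors, with library totals, by DESeq2 and without a filter on low counts; 6 by limma voom, 0 in the older quasi-likelihood fit of edgeR and 0 in the second series alone. Single libraries also moved the count. It was 0 without each of libraries 2, 4, 5, 8, 13, 14, 16 and 17, 2 without library 15, 3 without library 9, 4 without library 18 and 8 without library 20. It was 38 without library 12, 41 without library 7, 63 without library 19, 68 without library 10 and 93 without library 21, and in these single-library fits 711 to 1182 genes had an unadjusted p under 0.05.

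**Figure D4:**
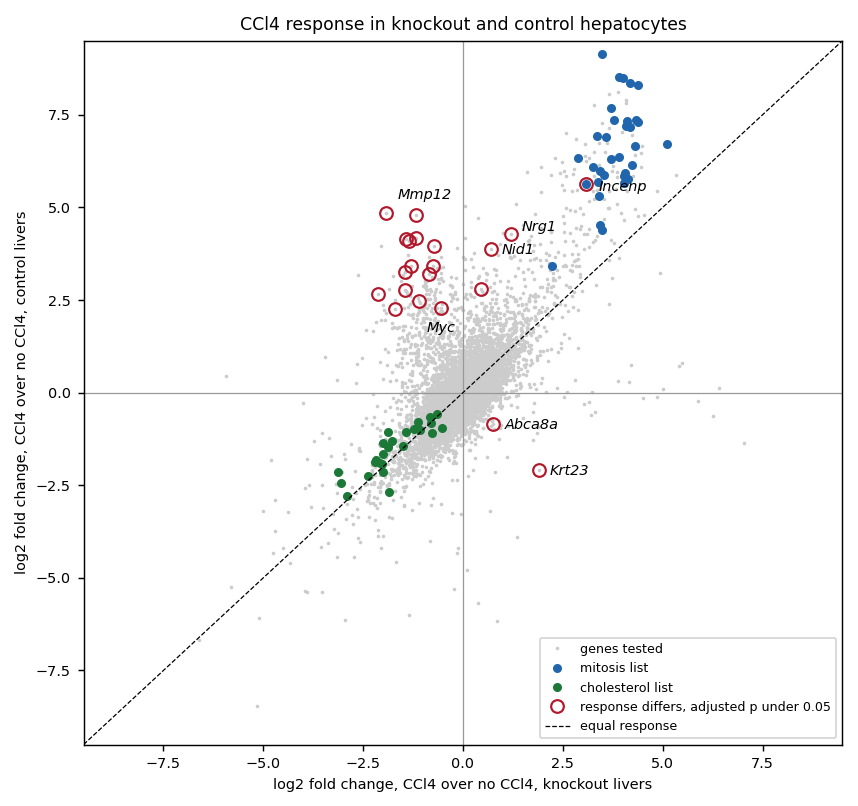
Log2 fold change of CCl4 over no CCl4 in knockout hepatocytes (horizontal axis) and in control hepatocytes (vertical axis) for the tested genes, with the mitosis and cholesterol lists coloured and the 21 genes whose difference was called ringed. Mitosis genes have a median of 3.90 in knockout and 6.35 in control hepatocytes, and cholesterol genes of -1.87 and -1.44.

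All 33 mitosis genes were called in both genotypes, with a median of 3.90 in knockout and 6.35 in control hepatocytes. After CCl4 the mean level of the list, in log2(CPM + 1), was 5.79 ± 0.278 in knockout (SD, n = 4) and 5.73 ± 0.0629 in control hepatocytes (SD, n = 3). Without CCl4 it was 1.66 ± 1.33 in knockout (SD, n = 5) and 0.684 ± 0.276 in control hepatocytes (SD, n = 6), library 20 included. The difference was called for 1 of the 33 genes, Incenp. It had 39.3, 42.6 and 40.1 CPM in control libraries 12, 15 and 16 with CCl4, against 0.693, 1.17, 0.615, 1.06, 0 and 1.06 CPM in libraries 2, 6, 7, 8, 9 and 19 without it, so that its log2 fold change was 3.09 in knockout hepatocytes, against 5.64 in control hepatocytes (difference -2.55, SE 0.543, adjusted p = 0.0439). The call of Incenp held in 10 of 28 alternative fits and was lost without library 4, 5 or 20, among others (without library 20: difference -2.05, adjusted p = 0.0954). Without library 20 the median log2 fold change of the mitosis genes in knockout hepatocytes was 5.29. With CCl4 the ranges of Incenp in the 2 genotypes overlapped, and without CCl4 each of the 5 knockout libraries lay above the 6 control libraries. These levels enter the test that picked Incenp, so their order adds no support to its call, and the share of all genes with such ranges was not counted.

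The pericentral list had a median of -1.78 in knockout and -1.79 in control hepatocytes and the cholesterol list of -1.87 and -1.44, and the difference was called for none of their members. Glul fell by 4.50 in knockout and by 4.19 in control hepatocytes (difference -0.31, SE 0.586, adjusted p = 0.922). Cyp2e1 fell by 2.63 in knockout and by 3.93 in control hepatocytes (difference 1.30, SE 0.687, adjusted p = 0.558). Acute phase genes had a median of -1.14 in knockout and of -0.17 in control hepatocytes, where 2 were called higher and 4 lower. Hpx had 5181, 4192 and 5787 CPM in control libraries 12, 15 and 16 with CCl4, against 6914, 3062, 3355, 3715, 5755 and 8245 CPM in libraries 2, 6, 7, 8, 9 and 19 without it, a log2 fold change of -0.03. The difference of its responses was not called (-1.32, SE 0.370, adjusted p = 0.129), nor was that of any acute phase gene. Fatty acid oxidation genes, 9 higher and none lower in knockout hepatocytes, were 1 higher and 5 lower in control hepatocytes (median -0.29), again with no member called for the difference. Chemokines and inflammatory cytokines were 15 higher and 2 lower in control hepatocytes (median 2.46), against 3 lower in knockout hepatocytes. The difference was called for 1 of these 22 genes. In control hepatocytes 4 of 11 Kupffer, 2 of 6 monocyte, 1 of 12 endothelial and 7 of 13 stellate cell markers were called higher. Their medians were 2.15, 1.17, 0.70 and 2.85, and no member was called for the difference.

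**Figure D5:**
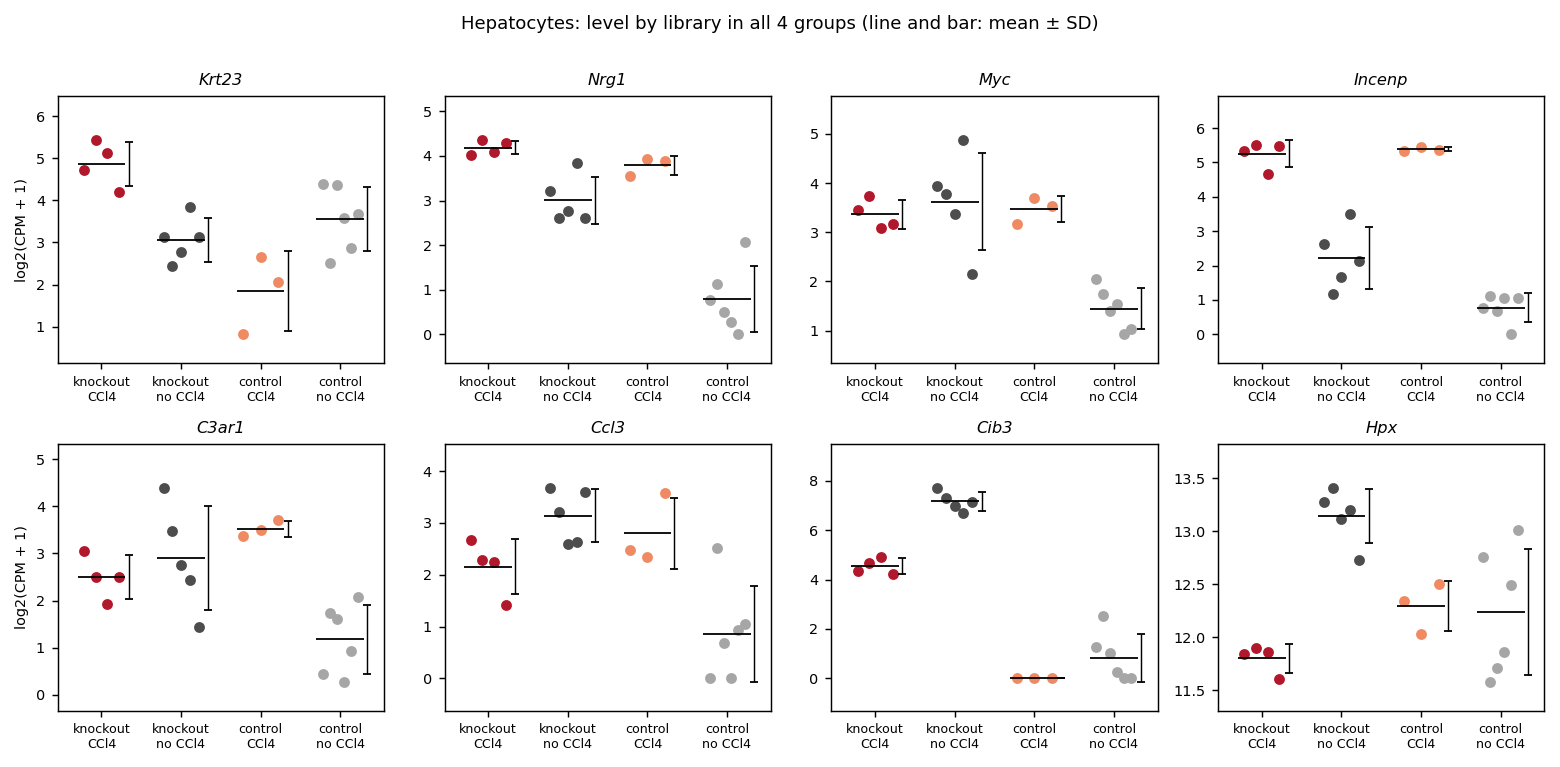
Level of 8 genes in log2(CPM + 1) (vertical axis) in 4 groups of hepatocytes: knockout with CCl4, knockout without it, control with CCl4 and control without it. Points are libraries, and the line and bar are the mean ± SD of 4, 5, 3 and 6 libraries. Krt23 is higher with CCl4 in knockout and lower in control hepatocytes, and Cib3 is present in knockout and near 0 in control hepatocytes.

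Krt23 went opposite ways. Beside the knockout values above, it had 0.763, 5.34 and 3.19 CPM in control libraries 12, 15 and 16 with CCl4, against 19.7, 4.70, 19.7, 11.04, 6.32 and 11.7 CPM in libraries 2, 6, 7, 8, 9 and 19 without it, a fall of 2.08 (adjusted p = 0.00303). The difference was 3.98 (SE 0.657, adjusted p = 0.0358), and it was called under 18 of 28 alternative fits, with differences of 3.10 to 4.83. In macrophages of the same knockout groups, Krt23 averaged 17.4 CPM with CCl4 and 1.02 CPM without it. Abca8a, a lipid transporter, was the other gene with a higher log2 fold change in knockout than in control hepatocytes. It had 58.1, 68.2, 49.7 and 25.9 CPM in libraries 13, 14, 17 and 18 with CCl4, against 18.5, 33.8, 34.7, 28.9 and 31.7 CPM in libraries 4, 5, 10, 20 and 21 without it (0.76, adjusted p = 0.0341). In control hepatocytes Abca8a averaged 51.3 CPM with CCl4 and 91.95 CPM without it (-0.85, adjusted p = 0.0105). The difference was 1.61 (SE 0.334, adjusted p = 0.0452), a call that held in 11 of 28 alternative fits.

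The neuregulin gene Nrg1, a ligand of ErbB receptors, had 15.4, 19.4, 15.95 and 18.6 CPM in knockout libraries 13, 14, 17 and 18 with CCl4, against 8.22, 5.09, 5.78, 13.3 and 5.14 CPM in libraries 4, 5, 10, 20 and 21 without it, and was 2.30-fold higher (adjusted p = 0.0364), a call that was lost without any one of the libraries other than library 20 (adjusted p 0.0512 to 0.109). In control libraries 12, 15 and 16 with CCl4 it had 10.7, 14.2 and 13.8 CPM, against 0.693, 1.17, 0.410, 0.212, 0 and 3.18 CPM in libraries 2, 6, 7, 8, 9 and 19 without it, and rose by 4.27. The difference for Nrg1 was -3.07 (adjusted p = 0.0439) and was called in 10 of 28 alternative fits. For Nrg1 all 5 knockout libraries without CCl4 were above all 6 controls without it. Myc had 10.02, 12.4, 7.51 and 7.96 CPM in knockout libraries with CCl4, against 14.4, 12.7, 9.39, 28.1 and 3.43 CPM without it, and in control libraries it had 8.01, 11.97 and 10.6 CPM with CCl4, against 3.12, 2.35, 1.64, 1.91, 0.902 and 1.06 CPM without it. The difference of the responses of Myc was -2.83 (adjusted p = 0.0393) and was called in 12 of 28 alternative fits. Again the knockout libraries without CCl4 were above all controls without it, but narrowly (3.43 CPM in library 21 against 3.12 CPM in library 2). For Nrg1 and Myc these levels enter the test that picked the genes, so their order adds no support to the calls. The share of all genes with such separate ranges was not counted.

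For C3ar1, Apbb1ip and Fabp7, libraries 4 and 5 were the highest of the knockout libraries without CCl4. The complement receptor C3ar1 had 7.35, 4.65, 2.82 and 4.64 CPM in knockout libraries 13, 14, 17 and 18 with CCl4, against 20.04, 10.2, 5.78, 4.44 and 1.71 CPM in libraries 4, 5, 10, 20 and 21 without it. In control libraries 12, 15 and 16 it had 9.34, 10.4 and 12.1 CPM with CCl4, against 0.212 to 3.18 CPM without it (difference -4.07, SE 0.764, adjusted p = 0.0358), and in macrophages of the knockout groups it averaged 229 CPM with CCl4 and 322.5 CPM without it. Apbb1ip, an adaptor of integrin activation in blood cells, had 4.01, 2.32, 1.88 and 1.99 CPM in knockout hepatocytes with CCl4, against 14.4 and 12.1 CPM in libraries 4 and 5 and 1.44 to 2.22 CPM in libraries 10, 20 and 21. The lipid binder Fabp7 had 4.01, 2.32, 1.88 and 6.30 CPM with CCl4, against 34.9, 19.7, 7.22, 9.62 and 3.43 CPM without it, and averaged 219 CPM with CCl4 and 606 CPM without it in macrophages of the knockout groups. Clca3a1, a chloride channel regulator, had 2.67, 2.32, 1.88 and 3.98 CPM with CCl4, against 19.5, 3.18, 7.22, 6.66 and 0.857 CPM without it, and the centrosome protein Nin had 1.549 to 2.82 CPM with CCl4, against 0.857 to 7.64 CPM without it. The calls of C3ar1 and Apbb1ip held in 13 of 28 alternative fits, of Nin in 14 of 28, of Fabp7 in 11 of 28 and of Clca3a1 in 12 of 20. The part of other cells in these differences was not tested.

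Cib3, a calcium- and integrin-binding protein (chromosome 8, 72204335 to 72212837), was named because earlier results had shown it in knockout livers. It had 19.4, 24.8, 29.1 and 17.6 CPM in knockout libraries 13, 14, 17 and 18 with CCl4, against 209, 158, 126, 101 and 139 CPM in libraries 4, 5, 10, 20 and 21 without it, and fell 6.58-fold (-2.72, SE 0.388, adjusted p = 9.47e-05). Controls had 0 counts in 3 libraries with CCl4 and 18 counts in 6 libraries without it. The difference of the responses of Cib3 was not called (1.72, SE 1.15, adjusted p = 0.68). With so few counts the response in controls could hardly be measured, so this test cannot decide whether the responses differ.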

How the data were processed

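The hepatocyte table that the authors deposited holds raw counts, whole numbers per gene symbol for 24951 genes, with a column for each library. The labels describe QuantSeq 3′ forward libraries and 50 bp single reads from a HiSeq4000. Per the submitters' processing notes, the tools were Trimmomatic 0.39 and HISAT2 2.1.0 and the build was GRCm38/mm10. Which counter, annotation and strand setting were used is not given in the sources used here, so overlapping genes may share reads. Gene positions come from the GRCm38 reference annotation.

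Groups follow the group and genotype labels. A single model of 4 group means over the 18 hepatocyte libraries was fitted in R 4.3.3 with edgeR 4.0.16 (filterByExpr, TMM, robust quasi-likelihood F tests), and p-values were adjusted by Benjamini-Hochberg over 9679 genes at a threshold of 0.05. A standard error is the absolute log2 fold change divided by the root of its F. CPM use the TMM-scaled totals of the tested genes. In the 9 knockout libraries 3 counts equal 1.30 to 3.22 CPM of the library total. No pair of knockout libraries was a copy: chi-square over its degrees of freedom was 5.76 to 14.8 within the groups. Counting intervals are exact at a level of 0.95 and cover counting error only.

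Members and gene lists were chosen with earlier results of these data known, and no list or marker level was tested as such. The genes named are Yap1, Wwtr1, Cyp2e1, Glul, Cib3 and Krt23; the 8 called genes that changed most in either direction with a mean of 10 CPM or more in the higher group (clones and predicted genes passed over); up to 4 called genes of lowest p per list; the 5 of lowest p for the difference of the responses; and any member of a list with up to 12 measured genes. Any other gene is marked as named after its values were seen, and this holds also for Anln, Fas, Plin2 and the genes called for the difference beyond those 5. Alternatives comprised RLE factors, no filter, DESeq2 1.42.0, voom in limma 3.58.1, non-robust dispersion, the file series as a covariate, the 9 libraries fitted alone, the second file series alone, and omission of the library with conflicting labels or of each library in turn. The library with conflicting labels is also omitted in its turn, so that this fit enters the counts of alternative fits under 2 names. The older quasi-likelihood fit and library totals were added after seeing the data. File series are the 2 runs of sequencing file numbers split at the gap between 14 and 25. Some genes that this rule gives are not reported here. The scripts were tested on simulated data with known changes in the knockout libraries with CCl4. The comparison of CCl4 in knockout hepatocytes recovered 39.2% of 2-fold and 80% of 4-fold changes. The test of the difference recovered 5.15% of 2-fold and 62.9% of 4-fold changes, so a gene not called for the difference may still differ.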

Additional observations from a re-analysis of the deposited data

Results flagged for a closer look

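A gene or list in 1 of the 2 groups made a case, and 384 cases were examined. In 28 of them, 1 library lay apart from the others of its group by Dixon's gap ratio on log2(CPM + 1). The limit used is passed by about 1 in 20 cases where values are independent and normal. Many of these genes move together and some were at 0 in all other libraries, so the 28 cannot be set against that share. Library 20, without CCl4, was above the other 4 of its group in 8 genes: Kif14 (4.44 CPM against 0 to 0.514), Plk1 (28.9 against 0 to 0.637), Espl1 (2.96 against 0), Nusap1 (19.3 against 0.514 to 0.857), Cdca8 (19.99 against 1.27 to 2.89), Cdkn3 (17.03 against 0 to 0.514), Ckap2 (33.3 against 0 to 0.857) and Tubb4b (37.0 against 12 to 15.4). Its mean level in log2(CPM + 1) was 4.03 for the mitosis list and 4.04 for the G1/S list, against 0.913 to 1.202 and 2.81 to 3.00 in the others.

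Library 4, without CCl4, was low in the pericentral list (mean level 5.73 against 6.83 to 7.23), in the bile acid transport list (5.80 against 6.04 to 6.12) and in the corticosteroid carrier Serpina6 (11.8 CPM against 127 to 272.5). Library 5 was low in Dhcr7 (106 CPM against 142 to 152). Library 10 was the only one with counts of Kif20a (1.44 CPM against 0), and it was high in Gdf15 (590.5 against 286 to 320.4).

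With CCl4, library 18 alone had counts of Slc1a2 (1.66 CPM against 0) and was low in the peroxidase Gpx1 (1024 against 1582 to 1714), Gdf15 (116 against 174 to 181), Rpl37a (361.5 against 404 to 409.7) and the bile acid transport list (5.32 against 5.82 to 5.89). Library 14 was low in Cdkn3 (23.2 CPM against 57.2 to 66.0), Ckap2 (31.0 against 73.5 to 80.7), the transferase Gstm2 (12.4 against 34.1 to 41.3) and Nin (1.549 against 2.65 to 2.82), and high in Khk (122 against 68.5 to 74.8). Library 13 was low in Vnn1 (25.4 against 51.1 to 55.4) and Prom1 (48.1 against 62.3 to 64.3).

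The response to CCl4 differed between knockout and control hepatocytes for 21 genes by the test of the difference. The log2 fold change in knockout minus that in control hepatocytes was positive for Krt23 (3.98) and Abca8a (1.61). It was negative for Fabp7 (-6.78), Mmp12 (-5.96), Clca3a1 (-5.56), Slc7a8 (-5.43), Fgl2 (-5.37), Slc11a1 (-4.79), Ccl3 (-4.72), Apbb1ip (-4.70), Ifi27l2a (-4.67), Gm14023 (-4.21), Clec12a (-4.15), C3ar1 (-4.07), Cd84 (-3.96), Nin (-3.56), Nid1 (-3.18), Nrg1 (-3.07), Myc (-2.83), Incenp (-2.55) and Haus8 (-2.34).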

How the results depend on the processing

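The number of genes called with CCl4 in knockout hepatocytes was 1341. It was 1067 to 1731 under the other settings and 751 to 1345 when a library was left out, lowest without library 18 (410 to 728 higher, 341 to 672 lower). With library totals as the scale 1401 were higher and 330 lower. Of 144 named genes called, 123 to 144 were called under the other settings and 119 to 139 with a library left out, and none changed direction. The difference of the responses, 21 genes, was 34 with RLE factors, 113 without a filter, 61 by DESeq2, 6 by limma voom, 54 with the file series as a term, 37 with library totals, 2 without the library of the conflicting label, and 0 to 93 when a library was left out. It was 0 in the older quasi-likelihood fit (878 at unadjusted p under 0.05) and 0 in the second file series alone (648 at unadjusted p under 0.05), which has fewer libraries. In control hepatocytes 2652 genes were called, 502 in the second series alone and 2020 to 2755 with a library left out. The cause of these shifts was not tested. No paired analysis was possible because the labels give each hepatocyte library its own number and the groups share none. Depth limits genes of low level, since 3 counts stand for 1.30 to 3.22 CPM.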

Other observations

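Coagulation genes were called lower in 6 of 25 cases in knockout hepatocytes, beside 6.84% of all genes (median -0.56; 3 called with library totals as the scale), led by plasma kallikrein (Klkb1, -0.98) and antithrombin (Serpinc1, -0.86). Genes of glutathione and NRF2 were called lower in 8 of 25 cases (median -0.48), among them the peroxidase Gpx1 (-1.09) and the glutamate-cysteine ligase subunit Gclm (-0.77). Apolipoprotein genes were called lower in 6 of 16 cases and higher in 1, Apoa4. Apoa2 was 3.03-fold and Apoh 2.05-fold lower, and 3 genes of this list were called lower without library 17, 18 or 21 and with library totals.

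The growth hormone receptor Ghr fell by 1.61 (adjusted p = 0.000631), the hormone Igf1 by 0.60 and its carrier Igfals by 0.95, which were the 3 called of 15 genes of that axis. Of 25 hepatocyte transcription factors 3 were called lower, Nr1h4 (-0.93), Tbx3 (-1.43) and Cebpa (-0.95). These small counts rest on single libraries: 1 gene of the growth hormone axis was called without library 17, 18 or 21, and of the factors 1 without library 10, 17 or 21 and 0 without library 18. Of 22 immediate early genes 1 was called, the nuclear receptor Nr4a1 (-1.54). Nuclear-encoded respiratory chain genes had 4 of 70 called lower (2 without library 13, 18, 20 or 21, and 7 without library 4), with a median of -0.23 that turned to 0.0549 with library totals as the scale. None of 15 mitochondrially encoded transcripts was called in knockout hepatocytes. Of 9 major urinary protein genes none was called in knockout and 6 were called lower in control hepatocytes. The difference was called for none of the 9. Without CCl4 they summed to 49.8, 70.0, 837, 277 and 3162 CPM in knockout libraries 4, 5, 10, 20 and 21, and to 1341 to 7398 CPM in control libraries. With CCl4 the sums were 445 to 1073 CPM in knockout and 452 to 822.5 CPM in control libraries.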
